A study of Mus musculus with 12 samples.

Results

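The genes described here are the developmental homeobox genes that lie outside the Hox clusters, as expressed in mouse hair follicle stem cells (HFSCs). They were chosen by symbol, as every gene of the Pax, Lhx, Dlx, Nkx, Irx, Meis, Pbx, Barx, Alx, Emx, Otx, En, Pitx, Prrx, Cux and sine oculis-related families except Lhx2. The rule uses no measured value, though earlier results of these data were known when the genes were chosen. The rule found 59 of 17885 genes in the table that holds the control and Eed iKO libraries, and 73 of 21915 genes in the table that holds the anagen and telogen libraries. The other 14 homeobox genes of the hair cycle table were not analysed in the Eed iKO table.

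RNA-seq was done on HFSCs sorted from the back skin of C57BL/6J mice by gating CD34+ cells that were α6-integrin high, EpCAM+ and Sca1-, with 3 libraries in each of 4 groups. The Eed iKO mice (labelled Eed -/-) were K15-CrePGR; Eed fl/fl, in which the keratin 15 promoter drives Cre in the bulge, the stem cell region of the follicle, upon RU-486 treatment. RU-486 at 10 mg/ml was put on the back skin for 7 days from day 50, control mice (labelled wildtype) received ethanol, and the cells of both groups were sorted at day 70. The anagen group came from wildtype mice of 28 to 30 days and the telogen group from wildtype mice of 50 to 52 days. The deletion and RU-486 itself cannot be told apart in the first pair of groups, nor can hair cycle phase and age in the second. Both sexes were used in the study, and the labels do not say which library came from which mouse or litter, so the p-values below measure the spread between these libraries.

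Homeobox genes encode transcription factors that bind DNA through the homeodomain and set the identity of body regions and tissues in the embryo. Many of them are classical targets of Polycomb repressive complex 2 (PRC2), whose core subunit EED is needed for the complex to place H3K27me3, a repressive mark, on histone H3. In skin, Dlx3 is known for its part in hair shaft and epidermal differentiation, while Pbx and Meis proteins bind DNA together with other homeodomain proteins.

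Values are normalized counts, that is, gene counts scaled by a size factor for each library, and the 2 tables were normalized apart, so no level is set across them. Between 33269583 and 57063586 reads per library were counted for control and Eed iKO, and no depth could be recovered for anagen and telogen. Eed itself stood at 950.2 to 1249 in the control libraries and at 933.3 to 1361 in those labelled Eed iKO (log2 fold change -0.01 ± 0.22 SE, adjusted p = 0.993, limma), so the groups overlapped, and Eed iKO below is the name given by the labels. A loss of an exon that leaves the transcript in place could not be read from these gene counts. The 9 bulge markers (among them Cd34, Krt15, Sox9 and Nfatc1) were detected in all libraries, with summed levels of 888700 to 1107000 in the Eed iKO table and 304600 to 630900 in the hair cycle table. The sum of Mki67, Top2a and Ccnb1, which mark dividing cells, was 1342, 3518 and 1223 in the control libraries and 9590, 9374 and 931.3 in Eed iKO, so Eed iKO replicate 3 stood apart from the other two. In the hair cycle it was 15740 to 25810 in anagen and 590 to 783.6 in telogen. In bulk samples such as these, fewer cells of a type and less RNA per cell cannot be told apart.

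Homeobox genes were more often low in HFSCs than the genes of each table as a whole, and a smaller share was high. In the Eed iKO table, 19 of 59 (32.2%) had a mean under 10 in both groups, against 12.4% of all genes in the table, and 13 (22.0%) reached 1000 or more in a group, against 38.0% of all genes. In the hair cycle table, 19 of 73 (26.0%) were listed at 0 in every library, against 19.2% of all genes, a further 26 (35.6%, against 16.8%) stayed under 10 in both groups, and 3 (4.11%, against 13.9%) reached 1000 or more.

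**Figure D1:**
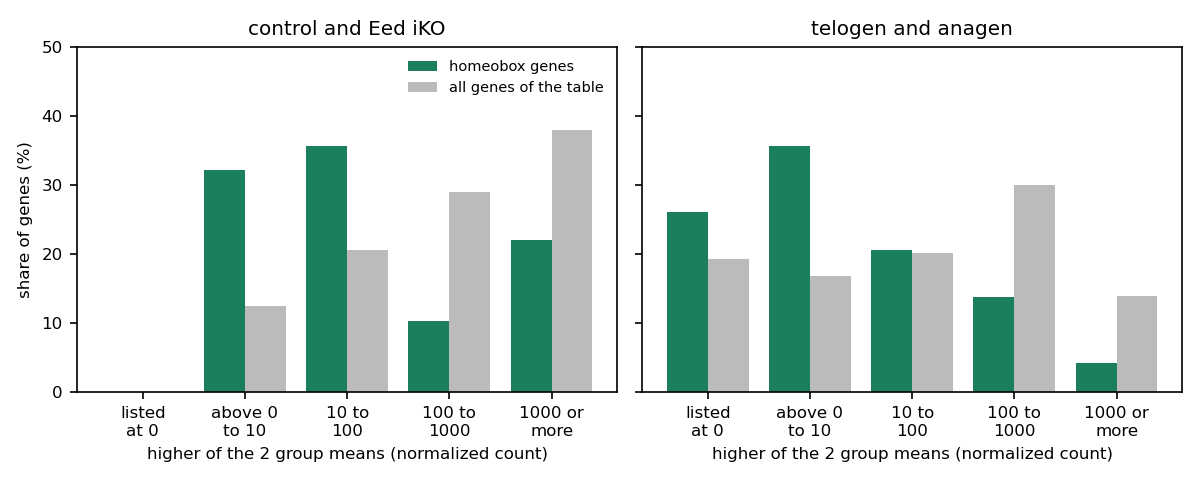
Share of homeobox genes (green) and of all genes of the same table (gray), in percent, by the higher of the 2 group means in normalized counts, for control and Eed iKO (left) and for telogen and anagen (right). The homeobox genes hold a larger share than all genes below 10, with 32.2% against 12.4% on the left, and a smaller share from 1000 upward.

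The genes under 10 in both groups include known regulators of brain, limb, heart and gut development. In the Eed iKO table these 19 included Alx1, Emx2, En1, Lhx1, Lhx5, Lhx6, Lhx9, Nkx2-1, Nkx2-2, Nkx2-5, Nkx2-9, Nkx6-2, Nkx6-3, Pax1, Pitx1, Prrx2 and Six2. In the hair cycle table the 19 listed at 0 in every library included Barx1, Emx1, En2, Irx6, Lhx3, Lhx8, Nkx1-1, Nkx2-2, Nkx2-3, Nkx2-4, Nkx2-5, Nkx2-6, Nkx3-2, Nkx6-2, Pax4, Pax5, Pax7 and Pitx3. The other 26 included Alx1, Alx4, Emx2, En1, Lhx1, Lhx4, Lhx5, Lhx6, Lhx9, Meis3, Nkx2-1, Nkx2-9, Nkx6-1, Nkx6-3, Otx1, Otx2, Pax1, Pax8, Pax9, Pbx4, Pitx1, Prrx2, Six2 and Six3. A filter on low values, which keeps genes with enough counts in the libraries of 1 group, left 36 of 59 homeobox genes to test in the Eed iKO table and 28 of 73 in the hair cycle table.

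Among the homeobox genes named here, Irx2 had the highest level per kb of transcript (the median length of the protein-coding transcripts of each gene) in all 4 groups. Irx2, an Iroquois factor, stood at 9730 and 11100 per kb in the first table and at 2560 and 2600 per kb in telogen and anagen. Pbx3 with 4510 per kb, Irx1 with 3990, Barx2 with 1900 and Dlx3 with 1600 followed in control, and Pbx3 with 771, Irx1 with 401, Barx2 with 385 and Pbx2 with 243 followed in telogen. Short incomplete transcripts pull the median length down for some genes. By the longest transcript the control level was 2070 per kb for Irx2, 1900 for Barx2 and 1600 for Dlx3. Irx1 then stood at 1380, Irx5 at 973 and Pbx3 at 855 per kb in control. By that length Barx2 ranked above Irx2 in anagen, where both stood at 554 per kb.

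The promoters of the homeobox genes held more CG on average than those of all genes, though not each one did, and the choice by symbol did not use this. RefSeq promoters (GRCm38.p6) were matched for 49 of 73 genes, 60 promoters in all, and the 250 bases before their start sites held a median of 14.5 CG (range 3 to 40) against 6 over all 32851 promoters. A GC content over 50% with a CpG ratio over 0.6 was found in 56.7% of them against 30.8% of all. The share was 56.7% both for the 30 promoters of genes that reached 10 in a group and for the 30 of genes that did not, with median counts of 15 and 14 CG. The 4 printed here are those of Irx2, whose level was high in every group, of Six6, which was lower in Eed iKO by the thresholds of the methods, and of the neighbours Dlx1 and Dlx2, which were higher in anagen. Each runs 5′ to 3′ on the strand of its gene and ends at the base before the RefSeq start site, with every CG in capitals (motif CG, which reads the same on both strands). Irx2 lies at chr13:72628570-72628819 (plus strand, 19 CG), Six6 at chr12:72939632-72939881 (plus strand, 17 CG), Dlx1 at chr2:71529195-71529444 (plus strand, 22 CG) and Dlx2 at chr2:71546755-71547004 (minus strand, 24 CG). In the GENCODE vM21 annotation Dlx1 starts at base 71528113, so its stretch precedes the RefSeq start but lies inside the gene as annotated there.
Irx2: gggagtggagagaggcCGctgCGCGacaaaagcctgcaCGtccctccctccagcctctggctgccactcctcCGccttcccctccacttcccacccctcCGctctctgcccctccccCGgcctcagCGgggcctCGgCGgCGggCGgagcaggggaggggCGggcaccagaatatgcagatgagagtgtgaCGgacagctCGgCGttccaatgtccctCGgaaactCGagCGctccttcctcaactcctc
Six6: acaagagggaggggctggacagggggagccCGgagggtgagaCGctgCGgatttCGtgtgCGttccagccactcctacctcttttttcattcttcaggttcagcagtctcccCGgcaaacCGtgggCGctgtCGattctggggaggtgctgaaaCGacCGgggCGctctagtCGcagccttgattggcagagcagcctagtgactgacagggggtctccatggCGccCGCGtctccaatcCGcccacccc
Dlx1: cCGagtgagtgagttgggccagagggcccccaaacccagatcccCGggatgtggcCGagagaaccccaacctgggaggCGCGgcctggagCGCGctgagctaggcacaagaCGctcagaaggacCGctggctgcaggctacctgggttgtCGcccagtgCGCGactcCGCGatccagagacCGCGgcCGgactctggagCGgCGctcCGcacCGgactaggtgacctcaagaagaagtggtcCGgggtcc
Dlx2: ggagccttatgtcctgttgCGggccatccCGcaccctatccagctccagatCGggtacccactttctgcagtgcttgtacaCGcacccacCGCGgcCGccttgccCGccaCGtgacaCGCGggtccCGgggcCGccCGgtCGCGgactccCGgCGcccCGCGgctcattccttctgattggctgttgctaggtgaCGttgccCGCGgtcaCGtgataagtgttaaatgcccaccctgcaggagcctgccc

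The first comparison asked which genes differed between HFSCs of Eed iKO and control mice. No homeobox gene passed an adjusted p under 0.05 by limma on log2(normalized count + 1), where 0.0267% of all 15008 genes tested did (4 genes, 0.02% higher and 0.00666% lower). Dlx3 alone passed by DESeq2 on the recovered reads, and also by limma with the replicate number as a block, and none passed by edgeR. An unadjusted p under 0.05 was reached by 3 of 36 (8.33%), against 14.7% of all genes. Those 3, Dlx3, Six6 and Dlx1, were all lower in Eed iKO, while over all genes 1257 were higher and 950 lower. With the thresholds of the methods (an absolute log2 fold change over 1.5 at an unadjusted p under 0.05), 1 of 36 was called, Six6, lower in Eed iKO, against 1.75% of all genes, 0.826% called higher and 0.926% called lower. The median log2 fold change of the 36 was -0.147, with 14 above 0, against a median of -0.001 over all genes, and 29 (80.6%) lay within 1 of 0 on the log2 scale, against 90.4% of all genes. For 7 of 36 (19.4%) the Eed iKO libraries did not overlap with control, 1 higher and 6 lower, against 20.2% of all genes (10.2% higher and 10.0% lower).

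**Figure D2:**
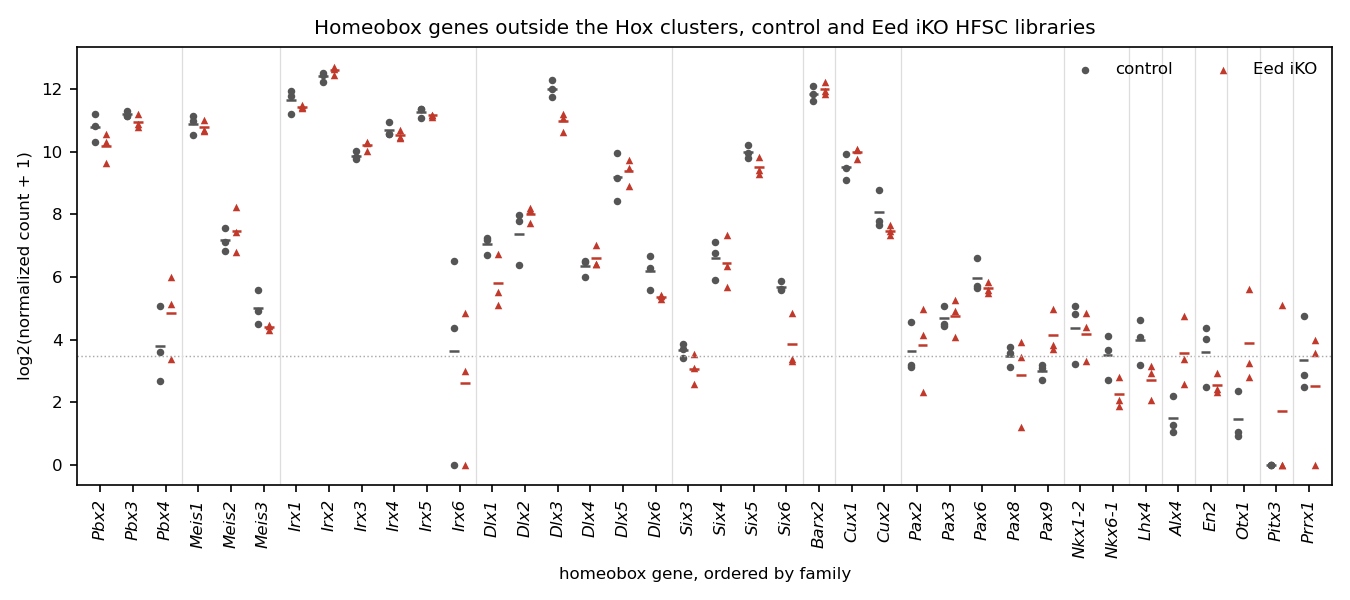
Level of 38 homeobox genes with a mean of 10 or more in control or Eed iKO, as log2(normalized count + 1), 1 point per library (circles control, triangles Eed iKO) with a short line at the mean of the log2 values and a dotted line at a normalized count of 10. Irx2 is the highest gene plotted in Eed iKO, and the Dlx3 and Six6 libraries of Eed iKO lie below those of control.

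Pbx genes encode TALE-class cofactors of other homeodomain proteins. Pbx2, which lies in the major histocompatibility region, ranged from 1256 to 2376 in control and from 793.9 to 1503 in Eed iKO (log2 fold change -0.61). Pbx3 ranged from 2238 to 2507 and from 1782 to 2337. The rarer Pbx4 varied from 5.416 to 32.64 in control and from 9.296 to 62.28 in Eed iKO. Each of these 3 genes overlapped between the groups.

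Meis1, a TALE partner of Pbx and Hox proteins, stood at 1496 to 2267 in control and 1670 to 2081 in Eed iKO, with a log2 fold change of -0.09 and a 95% interval from -0.53 to 0.34. Other annotated genes cover 18.3% of its exon bases, so part of its reads could belong to them. Meis2 ranged from 113.1 to 187.4 and from 108.9 to 298.6, while Meis3 was 46.48, 29.25 and 21.76 in control and 20.43, 21.25 and 18.78 in Eed iKO, without overlap (log2 fold change -0.60, adjusted p = 0.735, limma).

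The Iroquois factors, which pattern ectoderm, heart and neural tube, were high for 5 of 6 members, with close levels in the 2 groups. They sit in 2 clusters of the genome, Irx1, Irx2 and Irx4 on chromosome 13 and Irx3, Irx5 and Irx6 on chromosome 8. In control the first 3 stood at 3274 ± 831, 5438 ± 536 and 1660 ± 280 (SD, n = 3), and in Eed iKO at 2768 ± 96.3, 6220 ± 607 and 1479 ± 146 (SD, n = 3). Irx3 ranged from 861.7 to 1045 in control and from 1045 to 1256 in Eed iKO, and Irx5 stood at 2481 ± 295 and 2290 ± 54.2 (SD, n = 3). None of the 5 passed the test, and their 95% intervals all lay between -0.64 and 0.76 on the log2 scale. Irx6, at the end of its cluster, was by contrast low and erratic, with 19.43, 0 and 89.76 in control and 0, 27.89 and 6.92 in Eed iKO.

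The Dlx genes, relatives of Drosophila Distal-less that act in limb, face and skin appendages, lie as 3 neighbouring pairs. Dlx3, on chromosome 11 from 95120119 to 95125296 (GRCm38) and 15.2 kb from Dlx4, had the smallest p of the homeobox genes in this comparison. Its normalized count was 4080, 3452 and 4965 in the control libraries and 2145, 1586 and 2356 in the Eed iKO libraries. Every Eed iKO library was below every control library. The summed level of 5 markers of epidermis outside the sort was 10570, 7769 and 39750 in control and 13220, 4474 and 57520 in Eed iKO, so replicate 3 was high in both groups, and in both it also held the highest Dlx3 value. The part of such cells, or of dividing cells, in the Dlx3 difference was not tested. Without Eed iKO replicate 3 or control replicate 3 the log2 fold change was -1.16 and -0.91. The means were 4166 ± 760 and 2029 ± 398 (SD, n = 3), and the log2 fold change was -1.04 ± 0.20 (SE), with a 95% interval from -1.47 to -0.61. The adjusted p by limma was 0.0899, and over the alternatives run it ranged from 0.000357, by DESeq2 on the recovered reads, to 0.429. It passed 0.05 by DESeq2, with the replicate number as a block (adjusted p = 0.00301, limma) and without Eed iKO replicate 3 (adjusted p = 0.0259, limma), and did not pass by edgeR (adjusted p = 0.0896). DESeq2 called 673 of all genes where limma called 4 and edgeR 5.

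Dlx4, beside Dlx3, had a log2 fold change of 0.28 and stood at 62.56 to 90.89 in control and 83.66 to 127.5 in Eed iKO. The pair of Dlx1 and Dlx2, 9.4 kb apart on chromosome 2, had fold changes of opposite sign. Dlx1 was 149.9, 104 and 143.3 in control and 106.4, 45.15 and 33.61 in Eed iKO, where replicate 1 lay within the control range (log2 fold change -1.24 ± 0.56 SE, adjusted p = 0.332, limma). Dlx2 was 82.56, 217.7 and 251.2 in control and 278.5, 293.5 and 210.6 in Eed iKO (log2 fold change 0.64 ± 0.46 SE, adjusted p = 0.549, limma). Neither difference passed the test. The antisense gene Dlx1as covers 6.2% of the exon bases of Dlx1, and whether the libraries kept strand is not stated in the sources used here.

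Dlx5 and Dlx6, 9.2 kb apart on chromosome 6, differed in level and in spread. Dlx5 ranged from 342.3 to 988.3 in control and from 477.4 to 855.2 in Eed iKO. Dlx6 was 101.3, 76.91 and 47.15 in control and 41.93, 38.51 and 40.53 in Eed iKO, without overlap, yet with an adjusted p of 0.527 by limma (log2 fold change -0.82 ± 0.56 SE).

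The sine oculis-related genes encode partners of the Eya coactivators in eye, ear, kidney and muscle development. Six6, an eye and pituitary gene on chromosome 12 from 72939892 to 72944899 (GRCm38), was 47.87, 57.41 and 47.15 in control and 27.96, 9.296 and 8.898 in Eed iKO. All Eed iKO libraries were below all control libraries. The means were 50.81 ± 5.73 and 15.38 ± 10.9 (SD, n = 3), and the log2 fold change was -1.85 ± 0.72 (SE), with a 95% interval from -3.44 to -0.25. The adjusted p was 0.271 by limma and ranged from 0.228 to 0.543 over the alternatives. Six6 passed the filter on low values through its control libraries, as Eed iKO replicates 2 and 3 were under 10. Without the filter its adjusted p was 0.311 (limma). Left out one at a time, 5 of the 6 libraries ended its call by the thresholds of the methods. Another annotated gene covers 4.8% of its exon bases. Its neighbour Six4 overlapped fully between the groups (58.94 to 137.4 against 50.46 to 162.1).

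Six5, a gene with a broad expression in adult tissues, was 880.4, 997.6 and 1196 in control and 676.3, 625.5 and 911.5 in Eed iKO (log2 fold change -0.48 ± 0.23 SE, adjusted p = 0.364, limma). Only the highest Eed iKO library reached into the control range. Six3 was low in both groups, at 9.713 to 13.6 in control and 4.943 to 10.62 in Eed iKO.

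Barx2, a homeobox gene active in hair follicles and muscle, showed little difference, with 3177 to 4342 in control and 3701 to 4839 in Eed iKO (95% interval from -0.22 to 0.52 on the log2 scale). Cux1, a Cut-like factor, stood at 551.6 to 976 in control and 868 to 1088 in Eed iKO (log2 fold change 0.46). Cux2 was 222, 442 and 200.4 in control and 198.9, 159.4 and 174 in Eed iKO, without overlap (log2 fold change -0.61, adjusted p = 0.505, limma).

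The Pax genes join a paired domain to the homeodomain in several members but not in all. They were counted by symbol, with or without a homeodomain, and were all rare in these cells. Pax6, the eye regulator, ranged from 48.56 to 95.32 in control and from 44.09 to 55.78 in Eed iKO. Pax3, needed in melanocyte precursors, ranged from 20.81 to 32.64 and from 15.94 to 37.57. Pax9, active in tooth, thymus and tongue, was 5.55, 7.582 and 8.16 in control and 30.11, 13.28 and 11.86 in Eed iKO. It was the only tested gene under the rule whose Eed iKO libraries all lay above control. Pax9 passed the filter on low values through those libraries, as its control libraries were all under 10, so its place among the tested genes favours this outcome. Its log2 fold change of 1.16 ± 0.86 (SE) did not pass the test (adjusted p = 0.56, limma). Pax2 was 7.632 to 22.75 and 3.984 to 30.11, and Pax8 was 7.632 to 12.69 and 1.328 to 13.98, both with wide overlap.

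Of the Nkx genes, relatives of Drosophila tinman and vnd, Nkx1-2 ranged from 8.325 to 32.64 in control and from 8.898 to 27.96 in Eed iKO. Prrx1, a mesenchyme gene, was 6.244, 26 and 4.534 in control and 10.75, 0 and 14.83 in Eed iKO. The summed level of 6 fibroblast and dermal papilla markers was 1688, 2539 and 3279 in control and 1658, 1293 and 1930 in Eed iKO, and its part in the Prrx1 values was not tested.

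A gene at rest in control could also have come up too weakly to pass the filter, so the step over a mean of 10 was counted for every homeobox gene. Of the 24 with a control mean under 10, 5 (20.8%) reached 10 in Eed iKO, against 16.6% of all genes that started under 10, among them Alx4, Otx1, Pax9 and Pitx3. Of the 35 at 10 or more in control, 6 (17.1%) were under 10 in Eed iKO, against 3.83% of all genes, and these were En2, Lhx4, Nkx6-1, Pax8, Prrx1 and Six3. The homeobox genes lie nearer to 10 than the genes of the table as a whole, and the 2 shares of 17.1% and 3.83% are not corrected for that.

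Among those untested genes, Otx1, a forebrain gene, was 4.163, 1.083 and 0.9067 in control and 8.602, 47.81 and 5.932 in Eed iKO. Alx4, a craniofacial gene, was 1.388, 1.083 and 3.627 in control and 25.81, 9.296 and 4.943 in Eed iKO. Both were above control in all 3 Eed iKO libraries, mostly through 1 library each. Pitx3, a lens and midbrain gene, was listed at 0 in 5 libraries and at 33.61 in Eed iKO replicate 3. In the other direction, Lhx4 was 15.96, 23.83 and 8.16 in control and 3.226, 6.64 and 7.909 in Eed iKO, without overlap. Its place here, by a mean that fell under 10, likewise favours that outcome. En2 was 15.26, 19.5 and 4.534 against 4.301, 6.64 and 3.955, and Nkx6-1 was 5.55, 16.25 and 11.79 against 3.226, 2.656 and 5.932, and both overlapped.

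In this comparison the fold change moved with transcript length. The median log2 fold change was 0.155 over the 2991 genes with the shortest transcripts, Dlx1 among them, -0.02 over the 2988 of middle length, Dlx3 among them, and -0.103 over the 2989 with the longest, Six6 among them. By its longest transcript, of 4111 bases, Dlx1 would fall among the long ones, and the part of length in these differences was not tested.

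The second comparison set HFSCs in anagen, the growth phase of the hair cycle, against telogen, its resting phase. Dlx1 and Dlx2 rose in anagen and no homeobox gene fell at an adjusted p under 0.05 (limma), and Dlx1, whose telogen mean was under 10, passed the filter on low values through its anagen libraries and was not called without the filter (adjusted p = 0.0596). Both together are 2 of 28 tested, or 7.14%, against 11.6% of all 13457 genes tested, 7.22% of which were called higher and 4.35% lower in anagen. By the thresholds of the methods (a log2 fold change over 2 and an unadjusted p under 0.05) 1 of 28 was called, Dlx1, against 5.1% of all genes, 3.33% called higher and 1.77% called lower. At an unadjusted p under 0.05 there were 6 of 28 (21.4%, against 27.3% of all genes), with Dlx1, Dlx2 and Pbx3 higher and 3 lower in anagen, Irx3 and Dlx5 among them. The median log2 fold change of the 28 was 0.076, against 0.013 over all genes. The groups did not overlap for 5 of 28 (17.9%, against 33.3% of all genes, 18.1% higher and 15.2% lower), with Dlx1, Dlx2 and Irx4 higher and Dlx3 and Pax3 lower. Of the 28, 20 (71.4%) lay within 1 of 0 on the log2 scale, against 78.8% of all genes.

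**Figure D3:**
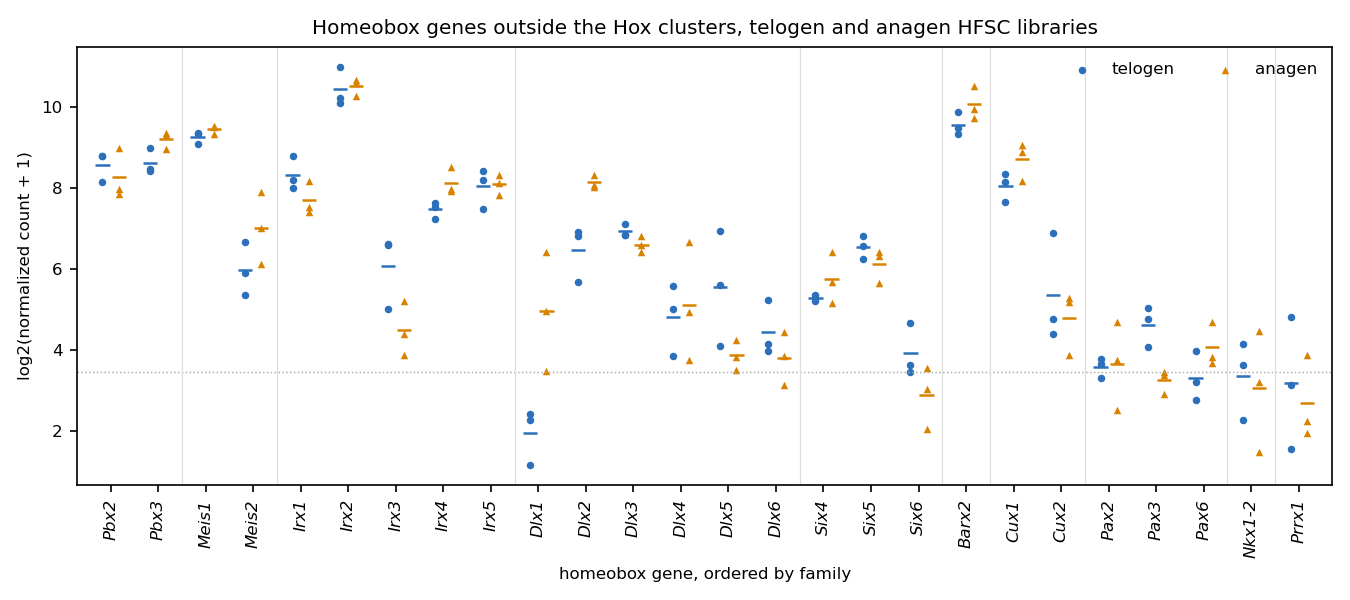
Level of 26 homeobox genes with a mean of 10 or more in telogen or anagen, as log2(normalized count + 1), 1 point per library (circles telogen, triangles anagen) with a short line at the mean of the log2 values and a dotted line at a normalized count of 10. Dlx1 and Dlx2 show the anagen libraries above those of telogen, and Irx2 is the highest gene plotted in both groups.

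Dlx2 was 315.6, 268 and 258.5 in the anagen libraries and 111.3, 120 and 50.61 in the telogen libraries. Each anagen library was above the highest telogen library. The means were 280.7 ± 30.6 and 93.99 ± 37.8 (SD, n = 3), and the log2 fold change was 1.66 ± 0.39 (SE), with a 95% interval from 0.80 to 2.52 and an adjusted p of 0.0212 (limma). Over the alternatives the adjusted p ranged from 0.0179 to 0.102, and the call was lost without an intensity trend (0.0527) and when anagen replicate 1, 2 or 3 was left out (0.102, 0.0782 and 0.0663).

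Dlx1, its neighbour, was 10.19, 30.34 and 84.59 in anagen and 3.849, 4.411 and 1.256 in telogen. All anagen libraries were above all telogen libraries, but they spread widely among themselves. The means were 41.71 ± 38.5 and 3.172 ± 1.68 (SD, n = 3), and the log2 fold change was 2.995 ± 0.87 (SE), with a 95% interval from 1.08 to 4.92 and an adjusted p of 0.0489 (limma). This call was just inside the threshold, and the adjusted p ranged from 0.049 to 0.195 over the alternatives. It held with TMM scaling (0.0493) and without anagen replicate 1 (0.049). It was lost without the filter on low values (0.0596), with a pseudocount of 0.1 (0.0647), with the replicate block (0.0716), without the trend (0.0719) and without any 1 of the other 5 libraries (0.0592 to 0.195).

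Markers of other cells and states moved with the phase as well. The summed level of 7 hair matrix and germ markers was 1161 to 2026 in telogen and 2493 to 2845 in anagen, with Krt25 higher and Msx2 lower in anagen at an adjusted p under 0.05 (limma). Of the 8 fibroblast and dermal papilla markers, Col1a1 and Dcn were higher in anagen at an adjusted p under 0.05 (limma). Col1a2 went the other way without overlap, at 154.1 to 228.7 in anagen and 233.4 to 599.7 in telogen (adjusted p = 0.108, limma). The rare Col3a1, which was not tested, was higher in anagen without overlap. Summed levels were 316.2 to 652.1 in telogen and 479.7 to 630 in anagen, with Twist2 listed at 0 in every library. Of the 9 bulge markers, Cd34 and Postn were lower and Itga6 was higher in anagen. The part of these markers and of the proliferation markers in the Dlx1 and Dlx2 differences was not tested.

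In the Eed iKO table the same pair gave the values listed above, with log2 fold changes of -1.24 for Dlx1 and 0.64 for Dlx2, of which neither passed. Six6, called by the thresholds of the methods in Eed iKO, was 3.151, 10.73 and 7.28 in anagen and 24.27, 10 and 11.39 in telogen (log2 fold change -1.03 ± 0.76 SE, adjusted p = 0.413, limma), with overlap. Its mean thus crossed 10, from 15.22 ± 7.87 in telogen to 7.052 ± 3.79 in anagen (SD, n = 3).

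**Figure D4:**
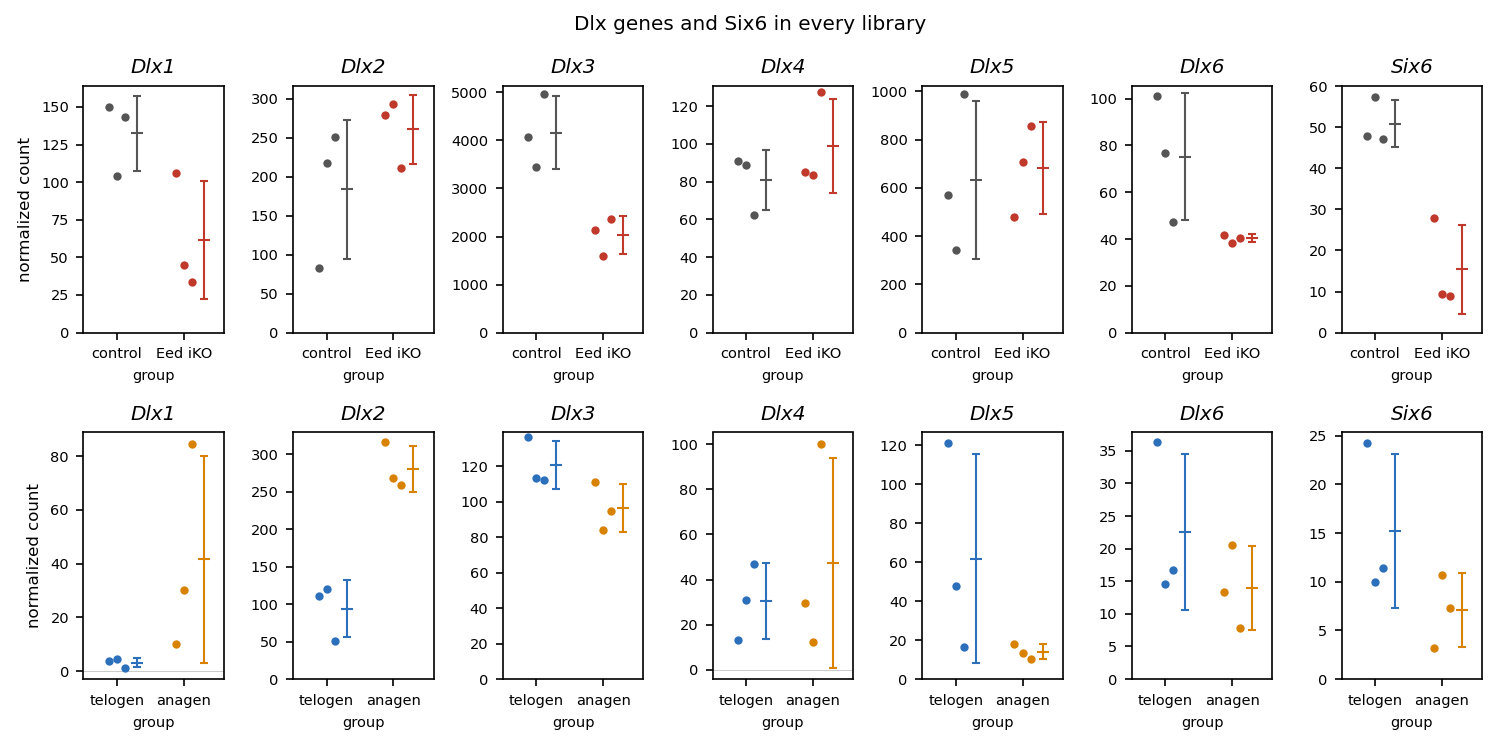
Normalized count of Dlx1 to Dlx6 and Six6 in every library, control and Eed iKO above and telogen and anagen below, with 1 point per library and bars for the mean and SD of the 3 libraries, each panel on its own linear scale. Dlx3 and Six6 are lower in all 3 Eed iKO libraries than in control, and Dlx1 and Dlx2 are higher in all 3 anagen libraries than in telogen.

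No other Dlx gene passed the test in anagen. Dlx3 was 111.2, 83.97 and 94.83 in anagen and 136.5, 113.4 and 112.6 in telogen, and the groups touched without overlap (log2 fold change -0.32 ± 0.36 SE, adjusted p = 0.601, limma). Dlx5 was 18.03, 13.32 and 10.4 in anagen and 120.9, 47.95 and 16.26 in telogen, with the largest fold change downward among the homeobox genes tested (-1.68 ± 0.73 SE, adjusted p = 0.165, limma) and a small overlap. Dlx4 ranged from 12.49 to 100.2 in anagen and from 13.35 to 47 in telogen, and Dlx6 from 7.848 to 20.64 and from 14.63 to 36.38. The fold changes of the Dlx genes thus ran in both directions.

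Pbx3 was 498, 654.1 and 624.8 in anagen and 353.9, 502.6 and 341.8 in telogen (log2 fold change 0.58 ± 0.26 SE, adjusted p = 0.171, limma). Pbx2 overlapped, at 230.5 to 504.8 in anagen and 282.5 to 436.6 in telogen.

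Meis1 had close levels in the 2 phases, with 638.1 to 729 in anagen and 540.8 to 651.1 in telogen (95% interval from -0.29 to 0.66 on the log2 scale). Meis2 was 127.7, 236.7 and 68.07 in anagen and 59.02, 40.31 and 100.9 in telogen (log2 fold change 1.02 ± 0.53 SE, adjusted p = 0.242, limma), and the groups overlapped.

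Among the Iroquois genes, Irx4 was 240.7, 248.3 and 362.9 in anagen and 184.8, 150.1 and 197.4 in telogen, without overlap (log2 fold change 0.66 ± 0.31 SE, adjusted p = 0.194, limma). Irx3 was 35.9, 13.7 and 20.19 in anagen and 94.9, 96.78 and 31.31 in telogen (log2 fold change -1.57 ± 0.62 SE, adjusted p = 0.126, limma). Telogen replicate 3 lay within the anagen range of Irx3. Irx1 ranged from 167.2 to 287.7 in anagen and from 256.1 to 441.8 in telogen. Irx2, with 1224 to 1618 in anagen and 1088 to 2019 in telogen, and Irx5, with 225.9 to 317 and 176.7 to 342.1, had log2 fold changes of 0.07 and 0.06. The 95% interval ran from -0.49 to 0.64 for Irx2 and from -0.66 to 0.77 for Irx5.

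Barx2 was 841, 982.9 and 1449 in anagen and 930.3, 638.1 and 707.1 in telogen (log2 fold change 0.50 ± 0.26 SE, adjusted p = 0.233, limma). Cux1 ranged from 285.9 to 531.8 in anagen and from 199.6 to 325.3 in telogen, and Cux2 from 13.7 to 38.23 and from 20.03 to 117.6. Six4 ranged from 34.98 to 85.2 in anagen and from 35.85 to 39.77 in telogen, and Six5 from 49.14 to 84.36 and from 74.67 to 112.3. All 5 of these genes overlapped between the phases.

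Pax3 was 9.991, 9.42 and 6.564 in anagen and 31.96, 26.01 and 15.78 in telogen, without overlap (log2 fold change -1.37 ± 0.65 SE, adjusted p = 0.198, limma). It passed the filter on low values through its telogen libraries, as its anagen libraries were all under 10. The summed level of the 7 melanocyte markers was 2882 to 3285 in telogen and 1410 to 1488 in anagen, almost all of it in telogen from Mitf, and 2 of the 7 passed an adjusted p under 0.05 (limma), in opposite directions. Mitf was lower in anagen (684.8 to 995 against 2801 to 3125) and Dct was higher (387.3 to 709.3 against 61.21 to 133.5), while Sox10 was listed at 0 in every library. Tyrp1 (19.51 to 35.22 in anagen against 3.118 to 9.545 in telogen) did not overlap, in the direction opposite to Pax3, and Tyr, Pmel and Mlana overlapped. Their part in the Pax3 difference was not tested.

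The remaining rare genes overlapped widely. Pax6 was 11.94, 13.14 and 24.64 in anagen and 14.83, 8.289 and 5.788 in telogen, and Pax2 ranged from 4.73 to 24.99 and from 8.891 to 12.66. Nkx1-2 ranged from 1.787 to 21.28 and from 3.879 to 16.67. Prrx1, which did not pass the filter, ranged from 2.853 to 13.73 and from 1.972 to 27.33. Of 47 homeobox genes under 10 in telogen, 2 (4.26%) reached 10 in anagen, Dlx1 and Pax6, against 6.73% of all such genes. Of 26 at 10 or more in telogen, 3 (11.5%) were under 10 in anagen, Pax3, Prrx1 and Six6, against 5.59% of all such genes.

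**Figure D5:**
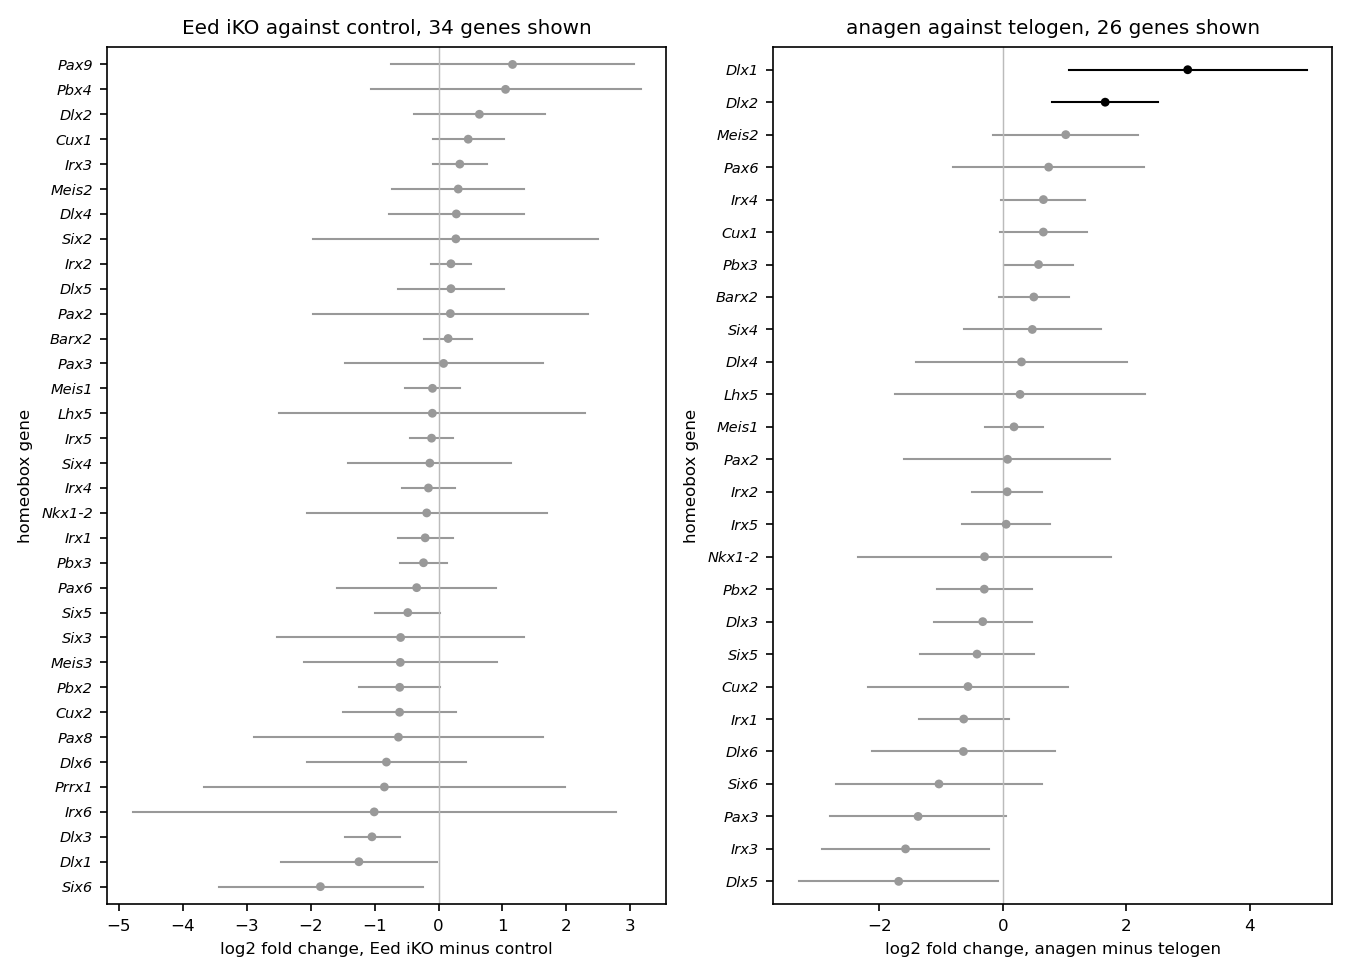
Log2 fold change (point) and its 95% interval (line) by limma for 34 of the 36 homeobox genes tested in Eed iKO against control (left) and 26 of the 28 tested in anagen against telogen (right), with genes at an adjusted p under 0.05 in black and the rest in gray. On the right, Dlx1 (2.995) and Dlx2 (1.66) are the only genes in black, and on the left there are none.

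Homeobox genes of other families were read beside them from a list. In Eed iKO, 0 of 43 tested passed an adjusted p under 0.05 by limma or by edgeR, 1 passed by DESeq2 (673 of all genes did), and 4 (9.3%, against 14.7% of all genes) had an unadjusted p under 0.05, with a median log2 fold change of -0.259 over the list against -0.001 over all genes. In anagen, 3 of 35 (8.57%, against 11.6% of all genes) passed, and the median was -0.112 against 0.013. Pou3f1, a POU factor of skin and Schwann cells, rose (log2 fold change 1.94 ± 0.41 SE, adjusted p = 0.0124, limma), with 133.9 to 192.2 in anagen against 33.97 to 58.23 in telogen. The Pou3f1 call was lost without anagen replicate 2 (0.0734) or 3 (0.0617). Zhx2, a zinc finger and homeobox repressor, rose (0.95 ± 0.24, adjusted p = 0.0289, limma), with 575.6 to 638.4 against 280.6 to 370.9. Its adjusted p ranged from 0.028 to 0.114 over the alternatives, and the call was lost without the trend (0.0633), with the replicate block (0.059), without any 1 of the anagen libraries (0.114, 0.1 and 0.105) and without telogen replicate 2 (0.0525). Msx2, a hair follicle factor that is also on the list of hair matrix and germ markers, fell (-1.60 ± 0.31, adjusted p = 0.00806, limma), with 103.9 to 151.1 against 315.2 to 469.4, and passed in every alternative (0.00769 to 0.0451).

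Of the partner genes, which encode cofactors such as the Eya, Ldb, Lmo, Dach and Tle proteins, 0 of 21 tested passed in Eed iKO by limma or by edgeR, 1 passed by DESeq2 (673 of all genes did), and 2 (9.52%, against 14.7% of all genes) had an unadjusted p under 0.05. The median of the list was -0.031. In anagen 1 of 19 (5.26%, against 11.6% of all genes) passed, and the median was -0.284. This was Ldb2, a LIM domain binding protein, which was 3.203, 0.7195 and 9.143 in anagen and 63.57, 11.88 and 97.06 in telogen (log2 fold change -3.37 ± 0.94 SE, adjusted p = 0.0416, limma). Ldb2 passed the filter on low values through its telogen libraries, as its anagen libraries were all under 10. Over the alternatives its adjusted p ranged from 0.0171 to 0.136. The call was lost without the filter (0.054), without the trend (0.0864) and with a pseudocount of 0.1 (0.0562). It was also lost without anagen replicate 1 (0.117) or 2 (0.135) and without telogen replicate 1 (0.102) or 3 (0.136).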

How the data were processed

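RNA-seq was measured in 12 libraries, 3 for each group, and the labels gave the groups and replicate numbers. The authors amplified total RNA with the Ovation RNA-seq System V2, pseudoaligned the reads with kallisto 0.42.5 to the Gencode vM20 transcriptome and normalized with DESeq2, whose version reads 3.11 in the submitters' processing notes. The deposited signal is a count divided by the size factor of its library. The deposited fold changes and p-values of the authors' own comparisons were not used. Within 0.01 of a step, 100% of the values of the Eed iKO table were whole multiples of 1 constant per library, so reads were recovered, against 27.3% to 31.0% in the hair cycle table.

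Homeobox genes and gene lists were chosen with earlier results of these data known. Each table was tested on its own with limma 3.58.1 (R 4.3.3) on log2(value + 1) with an intensity trend, after filterByExpr of edgeR 4.0.16 at a count minimum of 10, which kept 15008 and 13457 genes. Fold changes on this scale understate those of low genes. Adjusted p-values are those of Benjamini and Hochberg over all genes tested, and intervals are 95% intervals of the log2 fold change. The thresholds of the methods served as a second call rule. Alternatives were another pseudocount, no filter, TMM scaling, no intensity trend, the replicate block, leaving out each library, and, for the Eed iKO table, edgeR and DESeq2 1.42.0 on the recovered reads. Transcript lengths by the longest transcript were added after the data were seen. The functions were tested on simulated data. Coordinates and transcript lengths came from GENCODE vM21 (GRCm38), which matched 17879 of 17885 and 21915 of 21915 genes, and promoters from RefSeq (GRCm38.p6).

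Genes were named by a rule. Homeobox genes with a mean of 10 or more in a group are given with values, called ones with every library in both tables, the rest by name only, and from the lists at most the 3 largest rises and falls among called genes. Homeobox genes with an unadjusted p under 0.05 or without overlap that are given in every library were singled out after their values were seen. Some homeobox genes under the rule are not reported here by name, and the counts include them.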

Additional observations from a re-analysis of the deposited data

How the results depend on the processing

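In Eed iKO against control, 0 homeobox genes passed an adjusted p under 0.05, against 1 by DESeq2 on recovered reads, 1 with the replicate block and 0 to 1 with a library left out (Dlx3 each time), and 1 by the thresholds of the methods (Six6). Those thresholds gave 0 by DESeq2, 3 without the filter (Alx4, Otx1 and Six6) and 0 to 2 with a library left out. Over all genes they called 263 in the main fit and were not counted in these alternatives, so these counts have no share to be set against. Of the other homeobox genes 1 passed by DESeq2 and 1 with the block (Zfhx2), and 0 to 1 with a library left out, while of the partner genes 1 passed by DESeq2 and 1 with the block (Lmo1). In anagen against telogen, the 2 homeobox genes became 0 without the trend, 1 without the filter, 1 with a pseudocount of 0.1, 1 with the block (Dlx2 each time), 1 by the thresholds of the methods (Dlx1) and 0 to 2 with a library left out. The thresholds of the methods gave 1 to 3 with a library left out, where all genes were again not counted. The 3 other homeobox genes became 1 by those thresholds and 1 to 4 with a library left out, and the 1 partner gene became 0 without the trend, 0 without the filter, 0 with a pseudocount of 0.1 and 0 to 2 with a library left out. The cause of these shifts was not tested. Over all genes, 4 were called in Eed iKO by limma, 673 by DESeq2, 5 by edgeR, 424 with the block and 1 to 203 with a library left out, and in anagen 1556, 842 without the trend and 597 to 1529 with a library left out. Libraries with the same number had correlations of deviations of 0.039, 0.068 and 0.193 in the Eed iKO table. In the hair cycle table these were -0.035, -0.071 and -0.029. No correlations across different numbers were set beside them, so they do not settle whether the numbers pair the libraries. The main fit did not pair them, and with the block the calls over all genes in Eed iKO rose from 4 to 424.

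The log2 fold change changed sign when a library was left out for these genes, none of which was called. In Eed iKO it ran from -0.18 to 0.58 for Dlx5, -2.82 to 0.44 for Irx6, -0.27 to 0.03 for Meis1, -0.07 to 0.66 for Meis2, -0.76 to 0.25 for Nkx1-2, -0.39 to 0.93 for Pax2, -0.18 to 0.41 for Pax3, -1.15 to 0.19 for Pax8, -1.58 to 0.41 for Prrx1 and -0.58 to 0.25 for Six4. In anagen it ran from -1.04 to 0.21 for Cux2, -0.47 to 0.98 for Dlx4, -0.09 to 0.35 for Irx2, -0.22 to 0.25 for Irx5, -1.0 to 0.5 for Nkx1-2 and -0.44 to 0.65 for Pax2. TMM scaling moved the median of all genes by 0.003 and -0.008. Levels under 10, and depth unknown in the hair cycle table, limit what the rare genes can show.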

Other observations

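Single libraries held the highest values of several rare genes. In Eed iKO replicate 2, Otx1 stood at 47.81, and Sox10, a marker of melanocytes and Schwann cells, stood at 41.17 against 0.6938 to 7.527 in the other 5 libraries. In control replicate 3, Irx6 stood at 89.76, and in Eed iKO replicate 3, Pitx3 stood at 33.61 and Pbx4 at 62.28. In anagen replicate 3, Dlx1 stood at 84.59 and Dlx4 at 100.2, the highest of the 6 hair cycle libraries for both. These genes were singled out after their values were seen.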
